A study of Mus musculus with 12 samples.

Results

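The comparison of trametinib treated with vehicle treated SVR tumors used 6 of the 12 tumors sequenced, 3 in each group, and the 12897 of 54232 genes in the count table that passed a filter on low counts. SVR is a line of mouse endothelial cells transformed by activated H-ras and the SV40 large T antigen, and it forms angiosarcomas under the skin. The study asked what inhibition of MEK, of the VEGF receptors or of both did to these tumors. Cells of this 1 line were grown in athymic nude mice aged 8 to 12 weeks, although the labels give the strain as C57BL/6. Control mice received vehicle (cremaphor, PEG and tween), and trametinib treated mice received 1 mg/kg of this MEK inhibitor, in both groups daily by oral gavage. The other 6 tumors, treated with cediranib at 3 mg/kg alone or together with trametinib at 1 mg/kg, served here as a separate set in which trametinib was added to another drug. Replicates are separate tumors per the labels, so p-values measure the spread between these tumors. Dosing went on until a tumor ulcerated or outgrew the size limit, per the labels, and how many days each tumor was treated is not stated in the sources used here. Nude mice lack T cells, and the implanted cells, the stroma and the overlying skin all come from mice, so their transcripts cannot be told apart. Lysates of whole tumors were sequenced after exome capture because the RNA was degraded.

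In the RAS-RAF-MEK-ERK cascade, RAS at the membrane activates RAF kinases, which phosphorylate MEK, and MEK phosphorylates ERK. ERK then switches on early response genes such as the EGR and FOS factors, ETS factors of the PEA3 group, cyclin D1, and a set of inhibitors that turn the cascade down again, the DUSP phosphatases, Sprouty and SPRED proteins. Trametinib binds MEK1 and MEK2 and blocks their activity. Since SVR cells carry activated H-ras, they feed this cascade from its top.

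The libraries held 9478865 to 11666094 counts, and 3 counts, the limit that a count of 0 allows, were 0.251 to 0.349 CPM (counts scaled to library size with TMM factors). This limit covers counting error only. Markers of cell types differed among the tumors, and the endothelial ones can come from SVR cells or from vessels of the host. Summed endothelial markers were 772.4 to 1284 CPM in control and 308.1 to 397.7 CPM in trametinib treated tumors, keratins 112 to 846 and 56.8 to 85.7 CPM, and epidermal markers 153 to 209 and 119.8 to 149 CPM. Neutrophil markers were 9.61 to 25.5 and 2.76 to 4.88 CPM. None of these 4 sums overlapped between the groups (two-sided exact permutation test, p = 0.1 for each, the smallest p that 3 tumors against 3 allow), although the epidermal sums overlapped when scaled by library totals alone (145.2 to 203.9 and 111.9 to 147.5 CPM, p = 0.2). Schwann cell and nerve markers were higher without overlap, at 31.98 to 39.4 CPM in control and 46.3 to 51.7 CPM in trametinib treated tumors (exact permutation p = 0.1). Fibroblast markers (3264 to 23010 and 10240 to 40250 CPM), muscle markers (17.4 to 19410 and 279.8 to 28730 CPM), macrophage markers (533 to 858 and 423 to 608 CPM) and erythroid markers (75.8 to 1798 and 56.6 to 91.8 CPM) overlapped. In RNA of whole tumors, fewer cells of a type and less RNA per cell cannot be told apart. Apart from a model with an epidermal score, given below, the part of these markers in the results was not tested.

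Trametinib treated tumors differed from control tumors in 310 genes, 126 of them higher and 184 lower. Calls required an FDR of 0.05 or less (quasi-likelihood test of edgeR, Benjamini-Hochberg) and a log2 fold change of 1.5 or more in either direction. These were 2.4% of the genes tested, 0.977% higher and 1.43% lower. The FDR alone passed 789 genes (6.12%), with 341 higher (2.64%) and 448 lower (3.47%). Over all genes tested the median log2 fold change was 0.00573, against 2.43 over the genes called higher and -2.20 over those called lower. An absolute log2 fold change of 3 or more was estimated for 36 of the genes called higher and 46 of those called lower. The control and trametinib treated tumors did not overlap in any called gene, but they also did not overlap in 12.9% of all genes tested in each direction. Of the called genes 283 were protein coding. Values in brackets after the tumor values of a gene are its log2 fold change, SE and FDR. Where no alternative is named beside a called gene described on its own, its call was kept when any of the 6 tumors was left out and under each other normalization, filter, tool or model term that kept both thresholds.

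**Figure D1:**
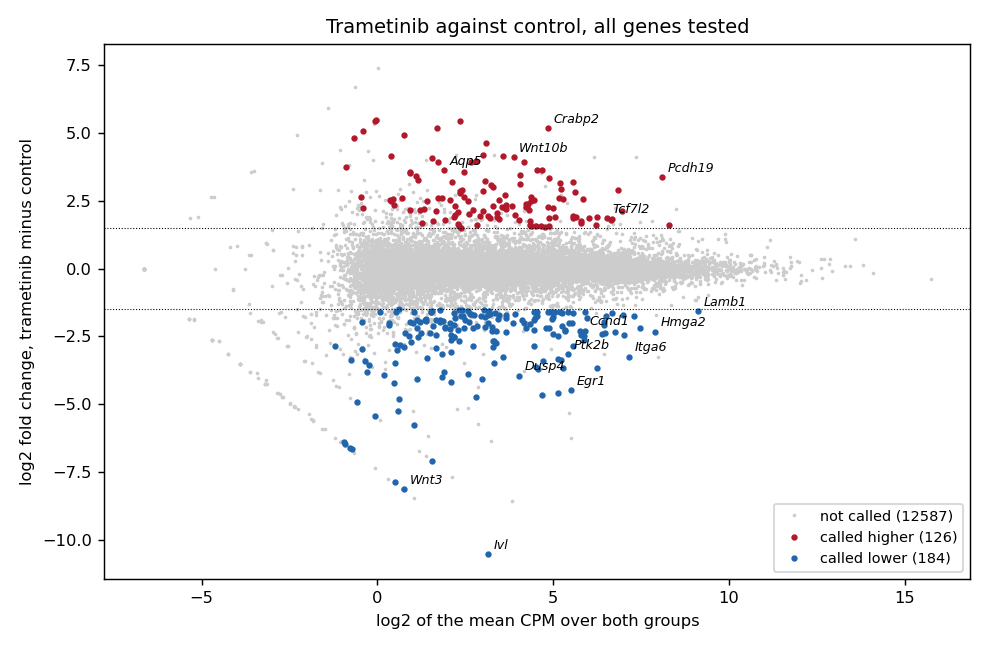
Log2 fold change of trametinib minus control (y axis) against the log2 of the mean CPM over both groups (x axis) for the 12897 genes tested. Red points are the 126 genes called higher, blue points the 184 called lower, gray points the others, and dotted lines mark a log2 fold change of 1.5 in each direction.

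No difference in the transcripts of the drug targets was detectable with 3 tumors a group. Map2k1, which encodes MEK1, lay at 226, 202 and 291 CPM in control and 236, 272 and 186 CPM in trametinib treated tumors. Its log2 fold change was -0.05, SE 0.20, FDR 0.924. Map2k2 (MEK2) had a log2 fold change of 0.29 (SE 0.13, FDR 0.243), and Mapk3, which encodes ERK1, had a log2 fold change of -0.02 (SE 0.14, FDR 0.948). The signs of Map2k1 and Mapk3 changed when single tumors were left out. Of the 27 tested genes of the RAS-RAF-MEK-ERK core, 0 were called higher and 2 lower, and their median was -0.02. Rps6ka2, which encodes the ERK substrate RSK3, fell from 105, 193 and 123 CPM in control to 30.96, 26.2 and 22.1 CPM in trametinib treated tumors, a log2 fold change of -2.41, SE 0.30, FDR 8.73e-04. Ksr2, a scaffold that holds RAF, MEK and ERK together, had 94 counts over the control tumors and 2 over the trametinib treated tumors, a ratio of 47.1 (95% exact interval 12.7 to 394.4).

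Of 17 feedback inhibitors of ERK tested, 6 fell with trametinib and 0 rose, with a median log2 fold change of -1.06. When a tumor was left out, 5 were called lower in each case. Dusp4, a phosphatase that inactivates ERK in the nucleus, was at 34.2, 18.9 and 39.3 CPM in control and 2.90, 0.349 and 2.51 CPM in trametinib treated tumors. The difference was -3.95, SE 0.51, FDR 9.86e-04. Spry4, a Sprouty protein that dampens signaling from receptor tyrosine kinases, fell from 6.73, 6.79 and 5.66 CPM in control to 0.635, 0.466 and 1.005 CPM in trametinib treated tumors, a difference of -3.14, SE 0.35, FDR 3.88e-04. Spred3, which helps to restrain RAS, fell from 5.54, 5.68 and 6.06 CPM in control to 1.45, 1.40 and 1.59 CPM in trametinib treated tumors, a difference of -1.95, SE 0.26, FDR 0.00115. Dusp2 had 47 counts over the control and 3 over the trametinib treated tumors, a ratio of 15.7 (95% exact interval 5.05 to 78.8), and lost its call without each of the 6 tumors in turn (FDR 0.0538 to 0.117). Not every inhibitor was called. Dusp1, which acts on JNK and p38 as well as ERK, had a log2 fold change of 0.45, and Spred1 of -1.35, which passed the FDR but not the fold minimum.

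Of 30 transcription factors that ERK controls, 7 fell and 1 rose, and the median was -0.86. Leaving out 1 tumor gave 5 called lower (without control replicate 3, trametinib replicate 2 or 3) to 9 (without control replicate 2). Etv4, an ETS factor of the PEA3 group, lay at 89.2, 81.8 and 78.7 CPM in control and 8.26, 14.7 and 11.97 CPM in trametinib treated tumors, and its log2 fold change was -2.84, SE 0.23, FDR 5.79e-05. Egr2 and Egr3 are zinc finger factors induced within minutes of a growth signal. Egr2 fell from 40.9, 48.4 and 55.3 CPM in control to 4.72, 4.89 and 3.94 CPM in trametinib treated tumors (-3.42, SE 0.42, FDR 7.78e-04), and Egr3 fell from 51.2, 95.98 and 30.9 CPM in control to 14.2, 12.3 and 5.02 CPM in trametinib treated tumors (-2.50, SE 0.47, FDR 0.00892). Their highest trametinib treated tumor lay below the lowest control tumor. Fos, a subunit of AP-1, was at 28.02, 5.98 and 17.1 CPM in control and 3.90, 4.54 and 5.78 CPM in trametinib treated tumors and is uncertain, since its call was lost under 4 other models (FDR 0.0597 to 0.105) and without each tumor but control replicate 2 (FDR 0.0784 to 0.125). Klf4 went the other way. This zinc finger factor, which maintains endothelial quiescence, rose from 30.5, 12.7 and 15.9 CPM in control to 73.1, 70.1 and 82.97 CPM in trametinib treated tumors, a log2 fold change of 1.93, SE 0.32, FDR 0.00400. Of the genes in the study text, Egr1, Dusp5, Dusp6, Etv5 and Itga6 were called lower (-4.49, -3.38, -3.70, -3.67 and -3.25) and Pcdh19, Lgr4 and Sertad4 higher (3.38, 2.82 and 4.64). The study also reports high keratin levels in trametinib treated tumors. Here the keratins went the other way, with 0 of 16 tested called higher and 1 lower. Their median was -5.21, or -0.55 without control replicate 1.

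**Figure D2:**
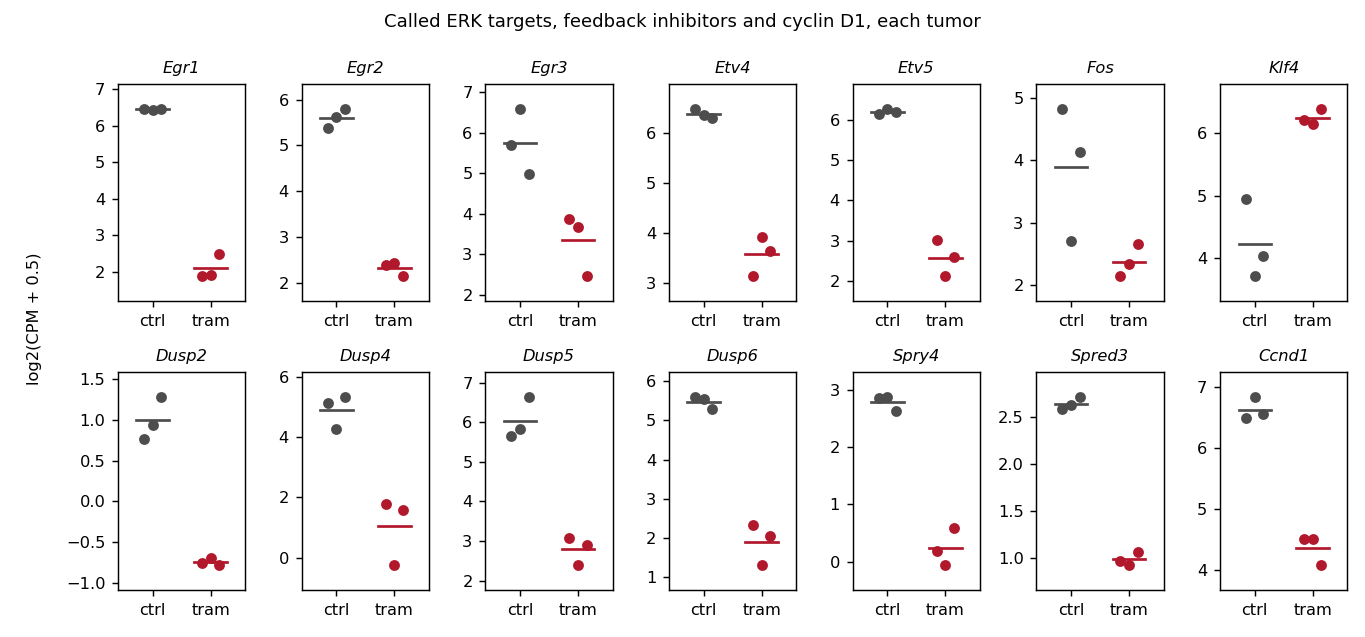
Log2(CPM + 0.5) of 14 genes in each tumor (y axis, scaled for each gene), for control (ctrl, gray) and trametinib (tram, red), 3 tumors each, with bars at the group means. The groups do not overlap in any of these genes, 13 of which were lower and 1, Klf4, higher with trametinib.

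Serum response factor, an ERK-linked regulator of early genes, binds the CArG box. RefSeq promoter windows (250 bases before the start, GRCm38.p6) were matched for 80 of the 184 genes called lower, 61 of the 126 called higher and 6974 of the 12897 tested. Genes with more than 1 listed promoter were left out. A CArG box lay on either strand in 3.75%, 1.64% and 1.22% of them, that is in 3, 1 and 85 windows. The AP-1 motif TGAGTCA was in 2.5%, 4.92% and 2.87%, the CRE motif TGACGTCA in 2.5%, 3.28% and 2.68%, and the ETS motif CCGGAAGT in 0, 0 and 6.17%. These are letter matches and not measured sites. The windows of the 4 called genes with a CArG box are printed 5′ to 3′, with the box in capitals, to show where it lies. Dusp5 alone held 2, directly side by side at -82 to -73 and -72 to -63 from the start.
Dusp5, chr19:53528895-53529144, plus strand: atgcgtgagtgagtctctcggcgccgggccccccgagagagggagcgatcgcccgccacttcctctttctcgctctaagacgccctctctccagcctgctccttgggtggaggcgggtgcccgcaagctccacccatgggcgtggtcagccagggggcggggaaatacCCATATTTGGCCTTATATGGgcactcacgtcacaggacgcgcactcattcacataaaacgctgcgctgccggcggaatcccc
Tbc1d9, chr8:83165102-83165351, plus strand: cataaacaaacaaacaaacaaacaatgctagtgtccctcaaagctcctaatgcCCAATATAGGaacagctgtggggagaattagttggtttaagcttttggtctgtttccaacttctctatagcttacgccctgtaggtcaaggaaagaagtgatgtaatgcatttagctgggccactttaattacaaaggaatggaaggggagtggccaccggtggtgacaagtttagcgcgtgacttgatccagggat
Tmem163, chr1:127678022-127678271, minus strand: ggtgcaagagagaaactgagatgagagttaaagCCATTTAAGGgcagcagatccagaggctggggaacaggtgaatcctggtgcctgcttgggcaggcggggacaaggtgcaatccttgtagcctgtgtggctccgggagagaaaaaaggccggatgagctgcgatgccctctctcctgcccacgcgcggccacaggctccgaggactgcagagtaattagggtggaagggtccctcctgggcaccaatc
Lgr4, chr2:109917397-109917646, plus strand: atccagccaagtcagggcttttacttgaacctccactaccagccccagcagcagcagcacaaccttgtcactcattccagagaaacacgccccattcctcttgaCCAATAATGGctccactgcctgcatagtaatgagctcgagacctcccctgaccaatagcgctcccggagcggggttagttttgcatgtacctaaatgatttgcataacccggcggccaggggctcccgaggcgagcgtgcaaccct
Dusp5 was at 50.1, 56.96 and 99 CPM in control and 7.90, 4.77 and 6.95 CPM in trametinib treated tumors. Tbc1d9, a TBC domain protein with a role in membrane traffic, was at 6.98, 10.9 and 20.8 CPM in control and 3.72, 4.31 and 3.10 CPM in trametinib treated tumors (-1.80, SE 0.35, FDR 0.0107), and fell short of the fold minimum without control replicate 3 (-1.27, FDR 0.0311). Tmem163, a zinc transporter, was at 3.32, 1.52 and 1.51 CPM in control and 0.0908, 0.233 and 0.0837 CPM in trametinib treated tumors (-3.93, SE 0.78, FDR 0.0111), and lost its call with limma voom (FDR 0.0851) and without trametinib replicate 1 (0.0506) or 3 (0.0537). Lgr4, a receptor for R-spondins that strengthens WNT signaling, went the other way, from 10.2, 15.4 and 11.3 CPM in control to 87.4, 84.03 and 88.9 CPM in trametinib treated tumors. Tbc1d9 and Tmem163 were chosen after their values were seen.

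Cyclin D1 fell, and 0 genes of DNA replication and mitosis were called. Over all genes tested 2.4% were called and 6.12% passed the FDR, so lists of this size would hold few calls. Ccnd1 (chr7:144929931-144939925, minus strand), which drives the step from G1 to S phase with CDK4 and CDK6, was at 89.5, 114 and 93.5 CPM in control and 22.1, 22.1 and 16.4 CPM in trametinib treated tumors, a 4.90-fold decrease (-2.29, SE 0.16, FDR 1.83e-05). It was the only called gene of 20 G1 cyclins, CDKs and inhibitors tested, where 0 were called higher and the median was 0.05. Of 33 DNA replication genes and 34 mitosis genes, 0 were called in either direction by edgeR, and 0 passed the FDR, while 2 and 7 had an unadjusted p under 0.05. DESeq2 and limma voom also called 0. Their medians were 0.19 and 0.23, with 24 and 31 genes above 0. Prc1, which bundles microtubules in the dividing cell, had a log2 fold change of 0.58 (SE 0.16, FDR 0.0548), and Slbp, which binds histone transcripts, had a log2 fold change of 0.36 (SE 0.14, FDR 0.164). Without control replicate 2, 1 mitosis gene was called higher. Genes of MYC and of ribosome production leaned the other way, with 33 of 37 below 0 and a median of -0.43, but edgeR, DESeq2 and limma voom called 0. At the FDR alone 8 passed in edgeR, all lower, and 21 had an unadjusted p under 0.05. Myc itself was at 40.2, 31.8 and 41.4 CPM in control and 21.8, 15.01 and 17.6 CPM in trametinib treated tumors (-1.06, SE 0.17, FDR 0.00348), and Nop56, a core protein of the particles that modify ribosomal RNA, at 186, 169 and 200.3 CPM in control and 112, 116 and 106 CPM in trametinib treated tumors (-0.73, SE 0.10, FDR 0.00136). The groups did not overlap in either gene.

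Of 11 tested BCL2 family genes, the survival factors Bcl2 and Bcl2l1 (BCL-XL) fell and 0 rose. Bcl2 was at 8.77, 10.9 and 12.6 CPM in control and 3.27, 1.98 and 1.76 CPM in trametinib treated tumors (-2.20, SE 0.31, FDR 0.00175), and Bcl2l1 at 61.8, 54.3 and 58.9 CPM in control and 17.5, 17.9 and 20.01 CPM in trametinib treated tumors (-1.66, SE 0.25, FDR 0.00248). All 3 trametinib treated tumors lay below the lowest control tumor in both. Bcl2l11, which encodes the death-promoting BIM that ERK normally marks for degradation, had a log2 fold change of 0.63 and was not called. The family median was -0.16.

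Ptk2b (chr14:66153257-66281052), which encodes the calcium-responsive kinase PYK2, was at 75.7, 82 and 76.3 CPM in control and 11.3, 10.4 and 4.86 CPM in trametinib treated tumors, and its log2 fold change was -3.15, SE 0.27, FDR 7.25e-05. Hmga2, a chromatin protein of embryonic and tumor cells, fell from 489, 383 and 333 CPM in control to 104, 74.1 and 61.2 CPM in trametinib treated tumors (-2.33, SE 0.22, FDR 1.02e-04). Prkg2, the membrane-bound cGMP-dependent kinase, fell from 38.2, 42.9 and 34.5 CPM in control to 5.63, 5.24 and 5.19 CPM in trametinib treated tumors (-2.84, SE 0.26, FDR 1.02e-04). All 3 had their lowest control tumor well above the highest trametinib treated tumor. Phlda1 (-2.19, SE 0.20, FDR 1.02e-04) and Add2 (-2.07, SE 0.19, FDR 1.07e-04), which encodes the membrane skeleton protein beta-adducin, also fell. Arap3, a GTPase activating protein, and Adgrg1, an adhesion G protein-coupled receptor, each changed by -1.76 (FDR 5.79e-05 and 9.46e-05). Lamb1, the laminin beta 1 chain of basement membranes, fell from 769, 834 and 891 CPM in control to 304, 306 and 230.1 CPM in trametinib treated tumors (-1.57, SE 0.14, FDR 1.02e-04). Lyn, a SRC family kinase, also fell (-1.59, SE 0.14, FDR 1.02e-04), and Rhbdf2, which carries the sheddase ADAM17 to the cell surface, fell too (-1.59, SE 0.14, FDR 9.46e-05). They dropped just below the fold minimum, with FDRs under 0.001, without trametinib replicate 3 (Lamb1 -1.46, Rhbdf2 -1.497) or trametinib replicate 2 (Lyn -1.48). Add2, Hmga2, Phlda1, Lyn and Ccnd1 overlap a gene on the other strand, and since the sources used here do not state the strand setting of the counting, their counts can include its reads.

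Tgfa and Hbegf, growth factors that ADAM17 sheds, fell as well. Among 17 tested ligands and urokinase genes 4 fell and 0 rose, with a median of -0.19, and between 2 (without trametinib replicate 3) and 6 (without control replicate 1) were called lower with 1 tumor left out. Tgfa was at 7.15, 6.08 and 8.79 CPM in control and 2.45, 1.40 and 1.26 CPM in trametinib treated tumors (-2.10, SE 0.29, FDR 0.00162). Hbegf was at 5.54, 5.68 and 10.6 CPM in control and 1.73, 1.28 and 0.921 CPM in trametinib treated tumors (-2.47, SE 0.35, FDR 0.00190). Both bind the EGF receptor, whose own transcript Egfr had a log2 fold change of 0.33. Pdgfa, a ligand of the PDGF receptors, had a log2 fold change of -1.77 (SE 0.35, FDR 0.0119) and lost its call without trametinib replicate 1 (FDR 0.0536) or 3 (0.0521), and Plaur, the urokinase receptor, had a log2 fold change of -2.20 (SE 0.48, FDR 0.0182) and lost it without control replicate 2 (0.0505) or 3 (0.0615) or trametinib replicate 3 (0.0710). Of 36 receptor tyrosine kinases 3 fell and 0 rose, with a median of -0.08, and without trametinib replicate 1 or 3 only 1 was called lower. Flt1, VEGF receptor 1, was at 18.1, 18.6 and 22.2 CPM in control and 6.99, 4.42 and 5.19 CPM in trametinib treated tumors (-1.82, SE 0.35, FDR 0.00945). The other called receptors were Tie1 (log2 fold change -1.97, SE 0.50, FDR 0.0379), lost without 4 of the 6 tumors (control replicate 2 or 3, trametinib replicate 1 or 3, FDR 0.0745 to 0.128), and Ntrk3, which ranged from 6.06 to 22.99 CPM in control tumors and from 0 to 0.726 CPM after trametinib and was lost with limma voom (FDR 0.267) and without each tumor but control replicate 2 or 3 (FDR 0.0559 to 0.0704).

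In insulin, IGF and PI3K signaling 3 of 34 genes rose, 1 fell, and the median was 0.07. Without trametinib replicate 3 only 1 was called higher. Inpp4b, a phosphatase that removes a phosphate from PI(3,4)P2, fell from 39.9, 85.7 and 74.96 CPM in control to 10.8, 16.8 and 13.7 CPM in trametinib treated tumors (-2.28, SE 0.27, FDR 6.21e-04). Pik3r3, a regulatory subunit of PI3-kinase, rose from 12.7, 12.9 and 12.4 CPM in control to 35.8, 36.2 and 40.4 CPM in trametinib treated tumors (1.56, SE 0.28, FDR 0.00606) and stood just under the fold minimum without trametinib replicate 3 (1.49). Igfbp2, which binds IGFs, was at 0.341, 0.101 and 0.505 CPM in control and 7.63, 7.91 and 1.09 CPM in trametinib treated tumors (4.07, SE 0.81, FDR 0.0113), with trametinib replicate 3 far below the other two, and was lost with limma voom (FDR 0.172). Irs1, the adaptor of the insulin receptor, had a log2 fold change of 1.90 (SE 0.50, FDR 0.0452) and was lost without each of the 6 tumors (FDR 0.0633 to 0.151) and with an epidermal score in the model (0.0797).

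**Figure D3:**
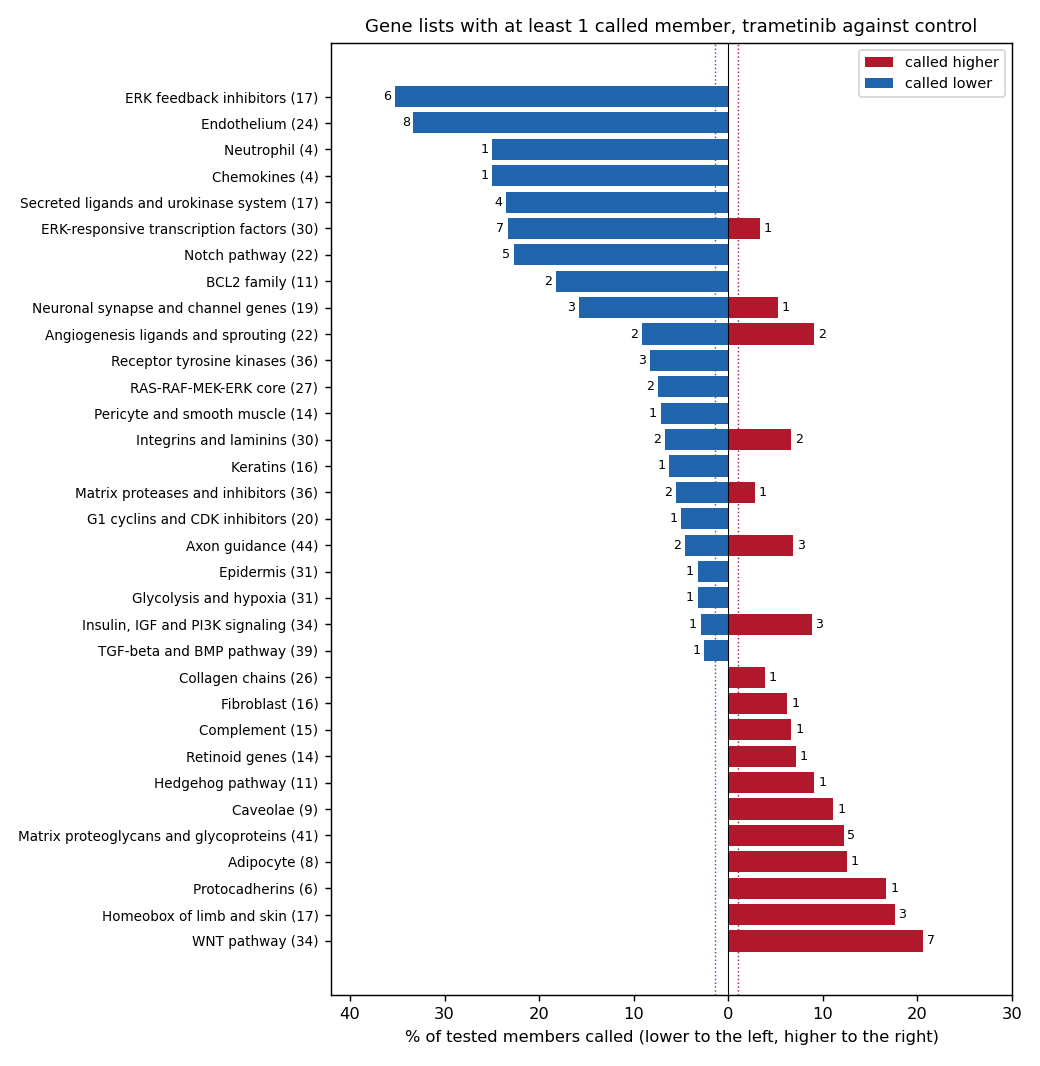
Share of the tested members of each gene list called lower (blue, to the left) or higher (red, to the right), in % on the x axis, for every list with at least 4 tested members and 1 call. Numbers in brackets are members tested, numbers at the bars are members called, and dotted lines mark the 1.43% lower and 0.977% higher over all genes; ERK feedback inhibitors (6 of 17) and endothelial genes (8 of 24) have the longest bars to the left, and the WNT pathway (7 of 34) to the right.

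Of 32 endothelial genes listed, 24 were tested, 8 fell in trametinib treated tumors, 0 rose, 22 were below 0, and the median log2 fold change was -1.71. SVR cells are of endothelial origin, and vessels of the host express the same genes, so these sources cannot be told apart. How many were called depended on single tumors, with 2 without trametinib replicate 3, 4 without control replicate 2 or 3 or trametinib replicate 1, 5 without trametinib replicate 2 and 11 without control replicate 1, and medians between -1.85 and -1.14. Nos3, the endothelial nitric oxide synthase, fell from 209, 151 and 301 CPM in control to 51.9, 54.2 and 15.3 CPM in trametinib treated tumors (-2.45, SE 0.42, FDR 0.00515). Trametinib replicate 3 had the least. Pecam1 (CD31) was at 4.60, 3.14 and 4.14 CPM in control and 1.18, 0.466 and 0.586 CPM in trametinib treated tumors (-2.38, SE 0.47, FDR 0.0111), and Podxl, a sialomucin of the luminal surface, had a log2 fold change of -1.78 (SE 0.37, FDR 0.0140). Without trametinib replicate 3 the FDR of these was 0.0503 and 0.0651. Cdh5 (VE-cadherin), which holds endothelial cells together, was at 45.3, 55.2 and 120.4 CPM in control and 24.4, 21.3 and 9.88 CPM in trametinib treated tumors (-1.99, SE 0.52, FDR 0.0423), with control replicate 3 far above the other two, and was called only without control replicate 1 when tumors were left out (FDR 0.0384 to 0.167 over the 6 fits). S1pr1, a sphingolipid receptor (-2.29, SE 0.57, FDR 0.0360), and Vwf, von Willebrand factor (-1.74, SE 0.45, FDR 0.0406), were likewise kept only without control replicate 1 (FDR 0.0403 to 0.127 and 0.0101 to 0.165). With the replicate number as a block, Cdh5, S1pr1 and Vwf were not called (FDR 0.0826, 0.0526 and 0.0770), and Vwf was also lost with limma voom (0.110) and the 6 libraries alone (0.101). Kdr, VEGF receptor 2, was at 4.68, 8.62 and 20 CPM in control and 1.54, 4.07 and 2.85 CPM in trametinib treated tumors (-1.98, SE 0.55, FDR 0.0566) and was not called. Eng and Cd34 had log2 fold changes of 0.03 and -0.06, and Emcn, Sox17 and Egfl7 did not pass the filter on low counts.

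Among 8 further endothelial genes outside this list, chosen after their values were seen and all called lower, 4 kept their calls under each alternative and 4 did not. Selp, the adhesion molecule P-selectin, was at 6.05, 9.73 and 4.34 CPM in control and 0.817, 0.233 and 0.167 CPM in trametinib treated tumors (-3.99, SE 0.49, FDR 7.78e-04). Calcrl, the receptor for adrenomedullin, was at 21.7, 17.4 and 11.1 CPM in control and 2.45, 2.79 and 2.68 CPM in trametinib treated tumors (-2.66, SE 0.32, FDR 7.24e-04). Hhex and Sox7, transcription factors of early endothelium, fell (-1.73, SE 0.20, FDR 4.67e-04, and -2.15, SE 0.28, FDR 0.00117). In these 4 the highest trametinib treated tumor lay below the lowest control tumor. Of the others, Bcl6b, a transcriptional repressor found in endothelium, had a log2 fold change of -1.73 (SE 0.23, FDR 0.00142) and met the fold minimum no longer without trametinib replicate 3 (-1.496). Rasip1, which is needed for vessel lumens, had a log2 fold change of -2.27 (SE 0.47, FDR 0.0138) and was lost without control replicate 3, trametinib replicate 2 or trametinib replicate 3 at an FDR of 0.0514 to 0.0578. Cd93, a surface lectin, had a log2 fold change of -2.50 (SE 0.61, FDR 0.0313) and was lost with limma voom and the replicate block and without control replicate 2, control replicate 3, trametinib replicate 1, trametinib replicate 2 or trametinib replicate 3 at an FDR of 0.0555 to 0.114. Myct1 had few counts after trametinib, at a ratio of 11.4 of control to trametinib (95% exact interval 3.57 to 57.8), and was lost with a fit of the 6 libraries alone and without control replicate 1, control replicate 2, control replicate 3, trametinib replicate 2 or trametinib replicate 3 at an FDR of 0.0658 to 0.128. Selp overlaps 2 genes on the other strand.

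Through the Notch pathway endothelial cells choose between tip and stalk or artery and vein. Of 22 Notch genes tested, 5 fell, 0 rose, and the median was -0.73, with 4 or 5 called lower when any tumor was left out. Notch4, the receptor restricted to endothelium, fell from 32.5, 28.1 and 43.3 CPM in control to 9.80, 10.2 and 7.62 CPM in trametinib treated tumors (-1.91, SE 0.25, FDR 0.00111). Mfng, a glycosyltransferase that tunes Notch receptors, fell from 3.07, 5.58 and 5.96 CPM in control to 0.635, 0.582 and 0.251 CPM in trametinib treated tumors (-3.30, SE 0.47, FDR 0.00197), and Nrarp, a target that limits Notch signaling, fell from 8.52, 6.59 and 8.28 CPM in control to 1.18, 0.931 and 1.84 CPM in trametinib treated tumors (-2.53, SE 0.41, FDR 0.00371). Of the ligands, Dll1 had a log2 fold change of -1.75 (SE 0.33, FDR 0.00916), under the fold minimum without control replicate 3 (-1.44), and Dll4 was at 2.38, 4.66 and 15.7 CPM in control and 0.635, 1.28 and 0.753 CPM in trametinib treated tumors (-3.09, SE 0.80, FDR 0.0423), a call kept only without control replicate 1 (FDR 0.0236 to 0.189 over the 6 fits) and lost with limma voom (0.156) or the 6 libraries alone (0.0539). Notch1 (-0.89) and Rbpj (-1.08), the pathway's DNA-binding factor, passed the FDR lower, and Notch2 (0.89) passed it higher, all short of the fold minimum.

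**Figure D4:**
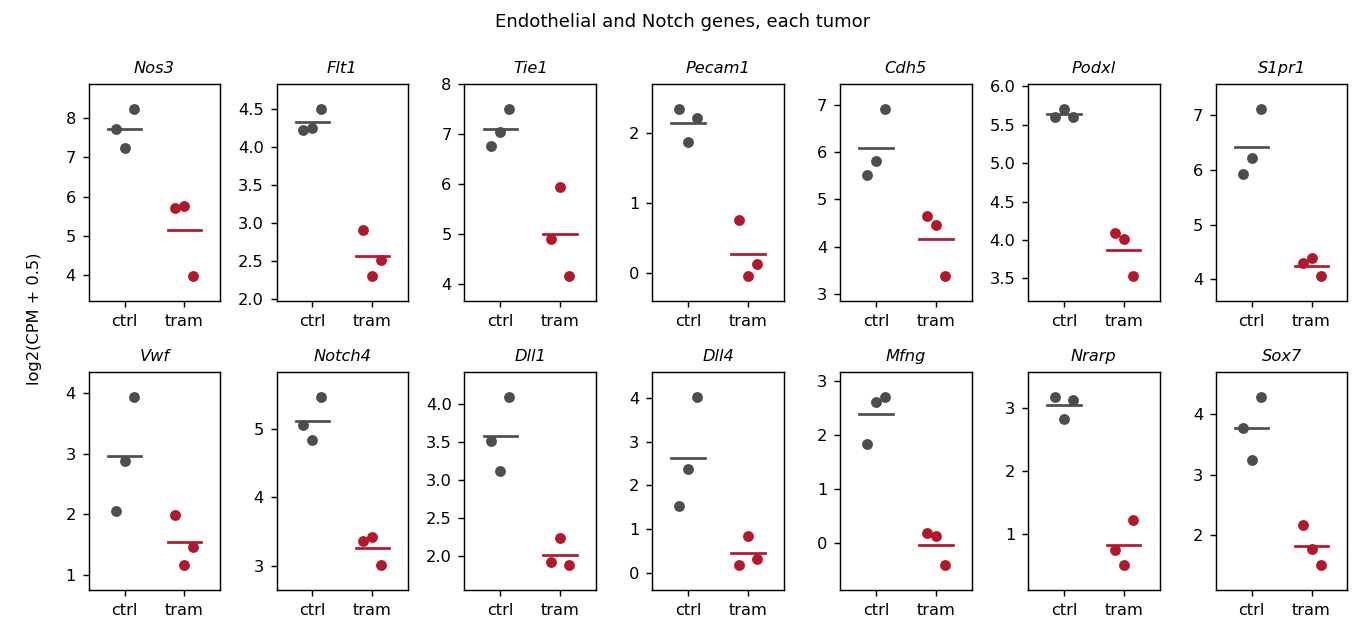
Log2(CPM + 0.5) of 14 endothelial and Notch genes in each tumor (y axis, scaled for each gene), for control (ctrl, gray) and trametinib (tram, red), 3 tumors each, with bars at the group means. All 14 were called lower. Control replicate 3, the rightmost gray point, is highest for Cdh5, S1pr1, Vwf and Dll4, and also for Nos3, Flt1, Notch4 and Mfng.

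Of 51 genes of the WNT pathway listed, 34 were tested, 7 rose and 0 fell, and the median was 0.21. With 1 tumor left out 4 (without trametinib replicate 2) to 8 (without trametinib replicate 3) were called higher. Lgr4 was described above. Wnt10b, a secreted ligand of the canonical pathway, rose from 2.90, 1.32 and 0.505 CPM in control to 14.1, 50.7 and 18.8 CPM in trametinib treated tumors (4.11, SE 0.68, FDR 0.00428), with trametinib replicate 2 the highest. Tcf7l2 (chr19:55741810-55933654) and Tcf7l1 encode TCF factors that bind beta-catenin. Tcf7l2 was at 43.9, 38.3 and 38.3 CPM in control and 141, 189 and 105 CPM in trametinib treated tumors (1.85, SE 0.21, FDR 4.82e-04), and Tcf7l1 at 37.1, 19.4 and 20.2 CPM in control and 81.2, 69.2 and 108 CPM in trametinib treated tumors (1.75, SE 0.31, FDR 0.00568). Fzd2, a receptor, had a log2 fold change of 1.88 (SE 0.31, FDR 0.00387), under the fold minimum without trametinib replicate 2 (1.40). Wnt10a and Notum, an enzyme that inactivates WNT ligands, were also called (log2 fold change 3.41, SE 0.82, FDR 0.0301 and log2 fold change 3.93, SE 1.02, FDR 0.0421). Wnt10a was lost with limma voom and without control replicate 1 or 2 or trametinib replicate 2 or 3 (FDR 0.0768 to 0.112), and Notum with limma voom, with the epidermal score and without each tumor but control replicate 2 (0.0516 to 0.141). Axin2, a standard target of beta-catenin, had a log2 fold change of 1.74 and did not pass the FDR. Wnt3 stood apart. This ligand, which was not in the list and was chosen after its values were seen, had 105 counts over the control tumors and 0 after trametinib, at least 35.1-fold lower (against 3 counts over the group).

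Among the genes with the smallest p-values were carriers, co-receptors and transcription factors of other pathways. Crabp2 (chr3:87948666-87953376), which carries retinoic acid to the nucleus, rose from 0.852, 1.72 and 2.12 CPM in control to 48.4, 53.1 and 68.2 CPM in trametinib treated tumors, a 36.3-fold increase (5.18, SE 0.34, FDR 1.59e-05). It was the only called gene of 14 retinoid genes, whose median was 0.10. Cdon, a co-receptor of Hedgehog ligands, rose from 1.62, 5.17 and 3.64 CPM in control to 46.6, 52.02 and 30.1 CPM in trametinib treated tumors (3.63, SE 0.47, FDR 0.00105), the only call of 11 Hedgehog genes (median 0.34). Aqp5, a water channel of glands, rose from 0.511, 0.304 and 0.808 CPM in control to 4.81, 10.1 and 5.78 CPM in trametinib treated tumors (3.64, SE 0.43, FDR 6.26e-04). No trametinib treated tumor overlapped the controls in Crabp2, Cdon or Aqp5. Tbx2, a repressor of the T-box family, rose (2.72, SE 0.30, FDR 3.94e-04), and Dlx3, a homeobox factor of skin, from 4.003, 2.84 and 1.31 CPM in control to 29.5, 32.7 and 28.8 CPM in trametinib treated tumors (3.46, SE 0.52, FDR 0.00248). They were among 3 of 17 limb and skin patterning genes that rose, with a median of 0.31 (-0.08 to 0.54 with 1 tumor left out). Others with small p-values were Htra1, a secreted protease (1.90, SE 0.20, FDR 2.69e-04), Pak3, a kinase downstream of RAC and CDC42 (2.19, SE 0.26, FDR 6.84e-04), Gas7 (1.85, SE 0.23, FDR 8.52e-04) and Mtss1l (2.24, SE 0.29, FDR 9.50e-04), which shape actin and membranes, Ldlrad3 (2.66, SE 0.29, FDR 3.42e-04) and Ndrg4 (1.82, SE 0.22, FDR 7.73e-04). Gas7 overlaps a gene on the other strand, as do, among the genes of the other paragraphs, Bcl2, Dll1, Dll4, Dusp5, Has2, Irf1, Irs1, Itga7, Matn2, Mcam, Nop56, Nos3, Notum, Nrarp, Pcdh19, Pdgfa, Plin4, Plxna4, Prc1, Prelp, Rasip1, Sertad4, Slbp, Spred3, Tbc1d9, Tcf7l1, Tgfa, Timp3 and Tmem163. Nop56 and Rasip1 also overlap genes on the same strand, as do Arap3, Itga10 and Pik3r3.

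Of 41 tested proteoglycans and glycoproteins 5 rose and 0 fell, with a median of 0.43, and 2 to 4 were called higher with 1 tumor left out (2 without control replicate 1 or 2 or trametinib replicate 1 or 3, and 3 without control replicate 3). Ogn (osteoglycin), a small leucine-rich proteoglycan of collagen fibrils, rose from 0.681, 1.72 and 1.41 CPM in control to 9.62, 12.6 and 4.52 CPM in trametinib treated tumors (2.80, SE 0.44, FDR 0.00301). Prelp (2.86, SE 0.67, FDR 0.0268), Fbln1 (1.61, SE 0.41, FDR 0.0375) and Matn2 (1.93, SE 0.40, FDR 0.0140) were called as well, Prelp lost without control replicate 1, control replicate 2, trametinib replicate 1 or trametinib replicate 3 at an FDR of 0.0661 to 0.0999, Fbln1 lost with limma voom and a fit of the 6 libraries alone and without control replicate 1, control replicate 2, control replicate 3, trametinib replicate 1 or trametinib replicate 3 at an FDR of 0.0509 to 0.145 or under the fold minimum, and Matn2 lost without control replicate 3 or trametinib replicate 2 at an FDR of 0.0540 to 0.0652. Outside this list, Timp3, an inhibitor of matrix proteases bound in the matrix, rose from 47.4, 23.4 and 25.7 CPM in control to 117, 105 and 139.5 CPM in trametinib treated tumors (1.91, SE 0.36, FDR 0.00893), and Has1, which makes hyaluronan, from 4.43, 2.13 and 3.13 CPM in control to 20.8, 16.6 and 18.8 CPM in trametinib treated tumors (2.52, SE 0.34, FDR 0.00136). Has2, another hyaluronan synthase, chosen after its values were seen, went the other way (-2.68, SE 0.66, FDR 0.0334) and was lost with limma voom and the replicate block and without control replicate 2, control replicate 3, trametinib replicate 1, trametinib replicate 2 or trametinib replicate 3 at an FDR of 0.0593 to 0.131. Ogn, Timp3 and Has1 had all trametinib treated tumors above the controls. Spon2, the remaining member called, had 1 count over the control and 60 over the trametinib treated tumors, a ratio of 59.9 (95% exact interval 10.4 to 2405), and was lost without each tumor but trametinib replicate 2 (FDR 0.0553 to 0.082) and with the epidermal score (0.0714). Among 30 integrins and laminins 2 rose and 2 fell, and the median was -0.28 (-0.49 to -0.03 with 1 tumor left out). Without any single tumor only 1 was called higher, and without trametinib replicate 3 only 1 lower. Beside Itga6 and Lamb1, which fell, Itga7, the laminin receptor of muscle, rose from 6.39, 4.97 and 6.97 CPM in control to 37.4, 22.6 and 34.8 CPM in trametinib treated tumors (2.37, SE 0.48, FDR 0.0126) and was lost without control replicate 2 (FDR 0.0562). Itga10, a collagen receptor, had a log2 fold change of 2.26 (SE 0.57, FDR 0.0358) and was lost with the replicate block and the epidermal score and without control replicate 1, control replicate 3, trametinib replicate 1, trametinib replicate 2 or trametinib replicate 3 at an FDR of 0.0533 to 0.125. Of 26 collagen chains only Col4a5, a basement membrane chain, was called (log2 fold change 2.23, SE 0.48, FDR 0.0185), and not without trametinib replicate 1 (FDR 0.0583). Collagen sums were 3113 to 23600 CPM in control and 9189 to 39550 CPM in trametinib treated tumors and overlapped.

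Guidance molecules, which steer axons and vessels alike, also moved both ways, with 3 of 44 higher, 2 lower and a median of -0.03. Sema6d, a membrane-bound semaphorin, fell from 99.2, 105 and 99 CPM in control to 16.3, 18.3 and 14.1 CPM in trametinib treated tumors (-2.64, SE 0.33, FDR 7.73e-04), and Plxna4, a semaphorin receptor, from 148, 114 and 185 CPM in control to 32.8, 40.5 and 13.98 CPM in trametinib treated tumors (-2.36, SE 0.48, FDR 0.0124). Sema3c (1.77, SE 0.40, FDR 0.0214), Sema3d (3.35, SE 0.89, FDR 0.0453) and Ntn1 (2.27, SE 0.48, FDR 0.0161), secreted guidance cues, were called higher. Without control replicate 1, 0 of the 3 were called (FDR 0.066, 0.124 and 0.0503), and each was lost without 3 or more other tumors as well. Sema3d was also lost with limma voom, the replicate block and the epidermal score (FDR 0.0607 to 0.0912). Of 22 angiogenesis ligands and sprouting genes 2 (Vegfd and Sema3c) rose and 2 (Dll4 and Apln) fell, with a median of -0.34. With 1 tumor left out 1 to 3 were called higher (1 without control replicate 1 or 2 or trametinib replicate 1) and 0 (without control replicate 3 or trametinib replicate 3) to 3 lower, 1 of them without control replicate 2 or trametinib replicate 1 or 2, with medians from -0.55 to -0.11, and limma voom called 0 lower and 3 higher. Apln, the ligand apelin, had a log2 fold change of -1.51 (SE 0.32, FDR 0.0152) and was lost with limma voom, a fit of the 6 libraries alone and the replicate block and without control replicate 3, trametinib replicate 2 or trametinib replicate 3 at an FDR of 0.0277 to 0.0595 or under the fold minimum. Vegfd, a lymphatic growth factor, rose from 0.426, 1.32 and 1.82 CPM in control to 6.08, 4.19 and 5.27 CPM in trametinib treated tumors (2.14, SE 0.43, FDR 0.0118). Cavin4, a caveolar coat protein of muscle, rose from 6.22, 8.62 and 3.84 CPM in control to 26.96, 41.2 and 29.6 CPM in trametinib treated tumors (2.39, SE 0.37, FDR 0.00283), and all 9 tested caveolar genes lay above 0 (median 0.48). Cav1, the main caveolin, was at 104, 77.3 and 104 CPM in control and 219, 210.0 and 159 CPM in trametinib treated tumors (1.04, SE 0.22, FDR 0.0172), short of the fold minimum. Of 19 neuronal and channel genes, 3 fell and 1, Aqp5, rose, with a median of -0.19 (-0.57 to -0.10 with 1 tumor left out). Only 1 was called lower without trametinib replicate 3, and 2 without control replicate 2 or 3 or trametinib replicate 1. Cbln1, a synapse organizer, fell from 13.6, 9.53 and 10.7 CPM in control to 1.54, 0.349 and 0.335 CPM in trametinib treated tumors (-3.88, SE 0.54, FDR 0.00159). Adra2a, an adrenergic receptor, had a log2 fold change of -4.06 (SE 0.81, FDR 0.0114) and was lost with limma voom and without trametinib replicate 3 at an FDR of 0.0504 to 0.0514, and Cacna1c, a calcium channel subunit, had a log2 fold change of -1.72 (SE 0.38, FDR 0.0189) and was lost with a fit of the 6 libraries alone and without control replicate 2, control replicate 3, trametinib replicate 1 or trametinib replicate 3 at an FDR of 0.0567 to 0.0791 or under the fold minimum.

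Single calls fell in the TGF-beta and BMP pathway (39 genes, median 0.09, the ligand Bmp7 with log2 fold change -4.67, SE 0.94, FDR 0.0119, lost without trametinib replicate 1 or trametinib replicate 2 at an FDR of 0.0522 to 0.0527), the complement list (15 genes, median 0.19, Masp1 with log2 fold change 2.34, SE 0.52, FDR 0.0201, lost without control replicate 1, control replicate 3 or trametinib replicate 1 at an FDR of 0.0750 to 0.0875) and the chemokines (4 genes, median -0.42, Pf4 with log2 fold change -1.88, SE 0.46, FDR 0.0311, lost with limma voom and a fit of the 6 libraries alone and without control replicate 3, trametinib replicate 2 or trametinib replicate 3 at an FDR of 0.0516 to 0.124 or under the fold minimum). Of 36 matrix proteases and inhibitors 1 (Timp3) rose and 2 (Mmp9 and Plaur) fell (median -0.25, or -0.33 to 0.01 with 1 tumor left out). Without control replicate 2 or 3 or trametinib replicate 3, 0 were called lower, without trametinib replicate 2 only 1, and without control replicate 1 there were 3. Without control replicate 3, 3 were called higher. Of 24 interferon-stimulated genes 22, and of 22 genes of MHC class I presentation 19, lay above 0, with medians of 0.54 and 0.48, but 0 passed the FDR by edgeR in either list, 1 in each had an unadjusted p under 0.05, and DESeq2 and limma voom called 0. Irf1, an interferon-induced factor, was at 29.5, 17.5 and 15.6 CPM in control and 28.2, 51.1 and 31.4 CPM in trametinib treated tumors (0.82, SE 0.31, FDR 0.154). The groups overlapped. In cholesterol and fatty acid synthesis (28 genes, median 0.30) and the lysosome (41 genes, median -0.07) 0 genes were called, and of 24 YAP and TEAD targets (median -0.03) 0 were called by edgeR, with 5, 9 and 8 genes at an unadjusted p under 0.05. Other settings called up to 2 lysosome genes lower and 1 YAP and TEAD target in each direction. Tead4, which partners YAP at DNA, had a log2 fold change of -1.40 (SE 0.24, FDR 0.00498), and passed the FDR alone. Glycolysis and hypoxia genes (31, median -0.03) held 1 call, the glucose transporter Slc2a3 (log2 fold change -2.91, SE 0.77, FDR 0.0444), lost without each tumor but control replicate 1 (FDR 0.0674 to 0.192), with limma voom (0.230) and with the replicate block (0.0634).

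Ivl (involucrin), a protein of the cornified envelope, had 543 counts over the control tumors and 0 after trametinib, at least 181.3-fold lower, and was not called by limma voom (FDR 0.0651). It was the only called gene of 31 epidermal genes tested, whose median of -2.30 (-1.41 with genes at 0 set to that bound and genes low in both groups left out) was 0 without control replicate 1. Among the alternatives 0 (limma voom) to 12 (no low-count filter) epidermal genes were called lower, with 6 by the likelihood ratio test and 4 by DESeq2. The keratin list (16 genes, 1 called lower) likewise had a median of -5.21, or -5.16 with genes at their bound, and of -0.55 without that tumor, and 12 keratins were called lower without the filter, 8 by the likelihood ratio test and 6 by DESeq2, against 0 without control replicate 2 or any 1 trametinib treated tumor. Krt18, a keratin of simple epithelium, had a log2 fold change of -2.03 (SE 0.45, FDR 0.0206), lost without control replicate 2 (FDR 0.0806) or any of the trametinib treated tumors (0.0522 to 0.0823). With an epidermal score in the model 351 genes were called, 265 of them among the 310. Of 16 fibroblast genes 15 lay above 0 (median 1.01), and Has1 was the only one called. Of 23 macrophage genes 0 were called by edgeR (median -0.21, 3 at an unadjusted p under 0.05, 1 called lower under another setting), and Mrc1, a mannose receptor, had a log2 fold change of -0.78 (SE 0.25, FDR 0.0919). Of 26 T, NK and B cell genes only 2 were tested, with 0 called by edgeR and 0 at an unadjusted p under 0.05. Hair follicle (20 tested, median -1.02, or -0.87 with genes at their bound), erythroid (6, median -3.06), muscle (18, median 0.64) and Schwann cell genes (4, median -0.11) held 0 calls by edgeR, with 0, 5, 0 and 1 genes at an unadjusted p under 0.05, while other settings called up to 4 hair follicle and 5 erythroid genes lower and 3 muscle genes higher. With 1 tumor left out the erythroid median ran from -3.59 to -0.99, the latter without control replicate 3. The muscle median ran from -1.93 to 5.02, and the hair follicle median from -2.17 to 0. A single call each fell among pericyte genes (Mcam, log2 fold change -2.12, SE 0.54, FDR 0.0385), adipocyte genes (Plin4, log2 fold change 3.56, SE 0.82, FDR 0.0251) and neutrophil genes (Mmp9, log2 fold change -2.66, SE 0.72, FDR 0.0497), each lost without 3 or more of the 6 tumors and with limma voom (FDR 0.0655 to 0.154).

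The 3 combination treated and 3 cediranib treated tumors allowed the response to trametinib to be read in tumors that did not enter the fold changes above, although they had shared in the estimate of spread behind those calls. They were fitted alone here. Their skin markers were uneven. Keratin sums were 5389, 110.6 and 2931 CPM with cediranib and 4441 to 6891 CPM with the combination. Hair follicle sums were 2.69, 3.87 and 841.3 CPM with cediranib and 250.3 to 634.2 CPM with the combination. The part of these markers in the second set was not tested. Of the 126 genes called higher 113 could be tested there, 112 had the same sign and 52 were called higher, which is 41.3% of the trametinib list and 32.9% of the 158 genes called higher there (1.3% of all genes tested there, and 2.28% called in either direction). Of the 184 genes called lower 171 could be tested, 161 had the same sign and 83 were called lower, 45.1% of the list and 69.2% of 120 (background 0.986%). None was called in the opposite direction. Of all genes tested in both comparisons, 49.95% lay above 0 in this second set and 50.05% below. The medians were 1.69 and -1.66, closer to 0 than the 2.43 and -2.20 that chose the genes. With 1 of these 6 tumors left out, 29 to 46 of the genes were called higher and 45 to 75 lower. The counts moved most without cediranib replicate 1 (29 higher, 46 lower), combination replicate 1 (31 and 45) or combination replicate 2 (33 and 48).

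Ccnd1 fell from 123, 94.8 and 118 CPM with cediranib to 32.9, 29.7 and 35.2 CPM with the combination (log2 fold change -1.78). Inpp4b (-3.43 against -2.28 without cediranib), Cbln1 (-5.90 against -3.88), Aqp5 (4.84 against 3.64) and Cdon (3.80 against 3.63) were called in both sets. Crabp2 rose from 2.40, 1.89 and 3.16 CPM to 12.8, 10.3 and 18.2 CPM (2.46 against 5.18). Bcl2 (-0.59 against -2.20), Spred3 (-0.58 against -1.95), Tbx2 (1.09 against 2.72) and Ndrg4 (0.55 against 1.82) were not called in the second set. The difference between these effects was tested for each gene with an interaction term. By the quasi-likelihood test 0 genes passed the FDR, the smallest of which was 0.185, while 909 genes had an unadjusted p under 0.05, and at the same FDR the likelihood ratio test found 28 genes and DESeq2 37. Of the 310 called genes 253 had the larger estimated effect without cediranib. Since the genes were chosen for a large effect there, this count is a description.

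**Figure D5:**
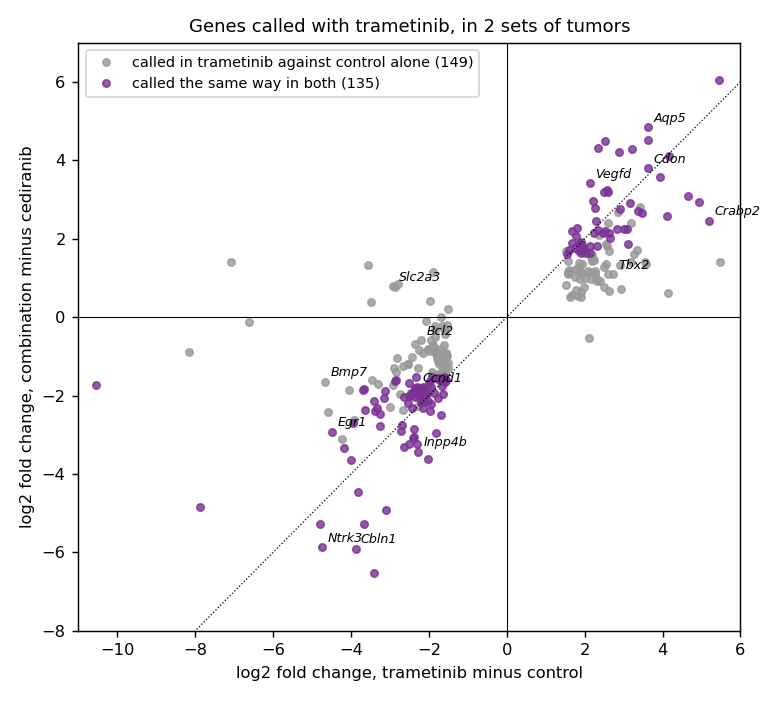
Log2 fold change of combination minus cediranib (y axis, fitted on these 6 tumors alone) against trametinib minus control (x axis) for the 284 called genes tested in both. Purple points are the 135 genes called the same way in both, gray points the 149 called with trametinib against control alone, and the dotted line marks equal values; most points lie nearer to 0 on the y axis than this line.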

How the data were processed

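RNA of 12 whole SVR tumors was sequenced as exome-captured libraries. The authors demultiplexed reads with bcl2fastq 1.8.4, aligned them with STAR 2.7.1a to GRCm38 used featureCounts 1.6.0 for counts per gene, and deposited 1 table of raw counts. Capture makes a count depend on the probes of a gene, so levels were compared between tumors and not between genes. The sources used here do not state the annotation release or the strand setting. Library totals ran from 9478865 to 11666094 counts. In R 4.3.3, genes were filtered with filterByExpr (minimum count 10, minimum total 15), TMM-scaled, and tested by quasi-likelihood in edgeR 4.0.16, with all 12 libraries in 1 model of 4 groups. A gene was called at a Benjamini-Hochberg FDR of 0.05 and an absolute log2 fold change of 1.5. SE was taken as the absolute log2 fold change over the root of F. Log2 CPM values, used for the epidermal score and the correlations between tumors, had a prior count of 2.

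Genes described are those with the smallest p-values in each direction, 12 each, apart from predicted genes, keratins and genes of the study text, plus called members of the gene lists. Some genes that this rule names are not reported here. The members and lists were chosen with earlier results of these data known. Alternatives were RLE or total scaling, no filter, the likelihood ratio test, DESeq2 1.42.0, limma 3.58.1 voom, the 6 libraries alone, the replicate number as a block, an epidermal score as a covariate, other thresholds and leaving out each tumor. The second set of 6 tumors was fitted alone. Scripts were tested on simulated data. Promoter windows came from a RefSeq table that does not cover every gene, and gene symbols with more than 1 promoter listed there were left out.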

Additional observations from a re-analysis of the deposited data

How the results depend on the processing

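Against 310 called genes (126 higher, 184 lower), omitting the low-count filter gave 687 (285 higher, 402 lower), the likelihood ratio test 461 (179 and 282), DESeq2 424 (169 and 255) and limma voom 262. The FDR alone gave 789, an FDR of 0.01 with the fold minimum 162, and glmTreat against the same fold minimum 34. With 1 tumor left out, 233 to 289 genes were called, 93 to 108 higher and 131 to 195 lower. The share called higher was 40.6%, and ran from 32.5% without control replicate 1 to 45.2% without trametinib replicate 3. Among called genes, 29 to 46 were called higher and 45 to 75 lower in the second set with 1 of its tumors left out. The interaction, with 0 genes, gave 28 by the likelihood ratio test and 37 by DESeq2. The cause of these shifts was not tested.

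With 1 tumor left out, Map2k1 (-0.05, not called) ran from -0.179 to 0.115, above 0 without control replicate 3 (0.115) or trametinib replicate 3 (0.0737). Mapk3 (-0.02) ran from -0.094 to 0.024, above 0 without trametinib replicate 2. The values of changed sign were smaller than their SE.

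The labels tie no replicate number to a shared animal or day, so the tumors were not treated as pairs. Deviations of same-numbered control and trametinib treated tumors correlated at 0.173, 0.356 and -0.0356. Those of differently numbered tumors correlated at -0.376 to 0.186. With 3 tumors a group these values cannot settle whether the numbers pair the tumors. With the replicate number as a block 301 genes were called, 274 of them among the 310.

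With 3 tumors a group, exact permutation tests of a single value cannot go below p = 0.1. At this depth a gene with 0 counts may still have up to 0.349 CPM.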

Other observations

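Il1b, Ccr1 and Nod2, genes of innate inflammation chosen after their values were seen, fell with trametinib, while their estimates were above 0 when trametinib was added to cediranib. Il1b, the cytokine interleukin-1 beta, was at 3.24, 1.72 and 2.42 CPM in control and 0.545, 0.233 and 0.251 CPM in trametinib treated tumors (-2.79, SE 0.47, FDR 0.00448), while combination minus cediranib was 0.85. Il1b overlaps a gene on the other strand. Ccr1, a chemokine receptor of myeloid cells, was at 2.90, 2.53 and 2.42 CPM in control and 0.272, 0.233 and 0.167 CPM in trametinib treated tumors (-3.49, SE 0.47, FDR 0.00124), against 0.38 in the second set. Nod2, a sensor of bacterial cell walls, changed by -1.91, SE 0.40, FDR 0.0151, against 1.16 there, and was lost without control replicate 3, trametinib replicate 1 or trametinib replicate 2 at an FDR of 0.0529 to 0.0649. The interaction term had unadjusted p-values of 5.63e-05, 3.05e-05 and 0.000108 in the edgeR quasi-likelihood fit, and 0 of these genes passed the FDR, which was at least 0.185 over all genes, so this fit did not show the effects to differ. The likelihood ratio test found 28 genes and DESeq2 37 at an FDR of 0.05. Whether these genes are among them is not reported here. Nlrp3, an inflammasome sensor also chosen in this way, had 0 counts in the trametinib treated tumors and was at least 11.0-fold lower than in control tumors (against 3 counts over the group). Summed neutrophil markers were also lower in these tumors (2.76 to 4.88 against 9.61 to 25.5 CPM in control tumors), and their part in these values was not tested.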
